A study of Rattus norvegicus with 9 samples.

Results

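The genes described here encode the nuclear part of the oxidative phosphorylation system, the chain of mitochondrial protein complexes that makes most of the ATP of a resting cell. They were chosen by symbol in the count table: the Ndufa, Ndufb, Ndufc, Ndufs and Ndufv genes, the 4 succinate dehydrogenase genes, the Uqcr genes, the Cox4 to Cox8 genes, the Atp5 genes and Cycs. The rule found 81 of the 17337 genes in the table. By symbol, 75 are subunits, 5 are relatives with a similar name (Ndufa10l1, Cox7a2l, Ndufa4l2, Atp5s and Atp5sl) and 1 is a pseudogene (Cox6c-ps1). RNA came from cultured cardiac fibroblasts of Sprague Dawley rats, with no genetic change or drug named in the labels. The 3 fetal libraries came from hearts at embryonic day 18, the 3 neonatal libraries from postnatal day 1 and the 3 adult libraries from rats of 7 weeks. In all 3 ages the unpassaged cells grew to confluency in DMEM with 10% fetal bovine serum, 1% penicillin and streptomycin and 0.1 mM ascorbic acid, so age is the labelled difference between them. The labels name no sort, and do not say whether replicates came from separate animals or flasks, so the p-values below measure the spread between these libraries.

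Complex I takes electrons from NADH, complex II from succinate, complex III passes them on to the small carrier cytochrome c, and complex IV hands them to oxygen. Complexes I, III and IV pump protons while they do so, and complex V, the ATP synthase, uses the returning protons to make ATP. Each complex but complex II also holds subunits encoded by the mitochondrial genome, which were not analysed here. In the heart, several complex IV subunits exist in a widespread form and a form found mainly in striated muscle, and muscle cells carry far more mitochondria than fibroblasts do.

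The promoters of these genes are shown first, since many respiratory chain promoters are known to carry sites for NRF1, for ETS-family factors such as GABP, and for YY1. RefSeq windows of 300 bases, from 250 bases before to 50 bases after each annotated start in GRCr8, were found for 69 of the 81 members. Each window was searched on both strands for the NRF1 letters GCGCATGCG, the ETS letters CCGGAAG and the YY1 letters AAGATGGCG. The NRF1 letters occurred in 7 of the 69 windows (10.1%) against 1.52% of all 33469 RefSeq windows and 1.93% of the 21851 of protein-coding genes. The ETS letters occurred in 19 windows (27.5%) against 8.75% of all windows and 10.7% of the protein-coding ones. The YY1 letters occurred in 10 windows (14.5%) against 1.73% and 2.07%. At least 1 of the 3 occurred in 30 windows (43.5%), against 11.3% of all windows and 13.8% of the protein-coding ones, and none in 39. A match is a string of letters, not evidence of a bound factor.

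The following stretches end at the base before the annotated start, run 5′ to 3′ on the strand of the gene, and carry the matched letters in capitals. The first 4 hold the NRF1 letters and their reverse complement, overlapping as a palindrome, and Atp5i also holds the ETS letters on the opposite strand. The next 3 hold the ETS letters, in Uqcrh and Uqcrc2 on the opposite strand.
Ndufa11 (chr9:1637494-1637613, plus strand): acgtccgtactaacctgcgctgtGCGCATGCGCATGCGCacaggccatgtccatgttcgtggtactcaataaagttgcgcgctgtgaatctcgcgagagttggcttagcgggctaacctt
Atp5g2 (chr7:135678219-135678338, minus strand): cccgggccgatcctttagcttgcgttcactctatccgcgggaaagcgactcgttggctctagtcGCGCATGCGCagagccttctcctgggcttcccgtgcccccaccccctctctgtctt
Atp5i (chr14:1464740-1464859, plus strand): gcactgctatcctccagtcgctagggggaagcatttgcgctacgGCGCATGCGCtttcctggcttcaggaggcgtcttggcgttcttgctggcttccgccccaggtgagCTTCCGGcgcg
Atp5o (chr11:44657484-44657603, minus strand): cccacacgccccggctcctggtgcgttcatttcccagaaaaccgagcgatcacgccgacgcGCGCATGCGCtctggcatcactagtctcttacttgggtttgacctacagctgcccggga
Sdhb (chr5:158547814-158547933, plus strand): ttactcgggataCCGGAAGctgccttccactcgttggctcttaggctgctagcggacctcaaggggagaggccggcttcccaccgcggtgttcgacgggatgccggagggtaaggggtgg
Uqcrh (chr5:134790883-134791002, minus strand): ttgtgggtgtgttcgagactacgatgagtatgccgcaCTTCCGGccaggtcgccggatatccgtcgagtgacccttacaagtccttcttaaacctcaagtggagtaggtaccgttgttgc
Uqcrc2 (chr1:184599120-184599239, plus strand): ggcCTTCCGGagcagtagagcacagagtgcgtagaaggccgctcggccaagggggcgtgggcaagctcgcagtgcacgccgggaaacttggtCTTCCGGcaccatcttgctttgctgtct

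The muscle forms of complex IV, Cox6a2 and Cox8b, held none of the 3 strings, and their stretches are shown because these genes differed most between the ages. After these 2 windows had been seen, the letters CTAAAAATA, a site of the muscle factor MEF2, and the TATA box letters TATAAA were searched as well. The MEF2 letters occurred in 1 member, Cox6a2, against 0.511% of all windows, and the TATA letters in 6 members (8.70%), Cox8b among them, against 14.2% of all windows.
Cox6a2 (chr1:192219717-192219836, minus strand): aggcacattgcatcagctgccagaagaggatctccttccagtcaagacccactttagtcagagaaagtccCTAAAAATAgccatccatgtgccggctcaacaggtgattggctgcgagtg
Cox8b (chr1:205408274-205408393, minus strand): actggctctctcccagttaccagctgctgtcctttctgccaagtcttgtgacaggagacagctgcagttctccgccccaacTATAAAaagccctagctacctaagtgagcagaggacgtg

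The libraries held 13392825 to 22850491 assigned counts. Levels are counts per 1000000 assigned counts (CPM) on TMM-scaled library sizes. Cultures of the 3 ages differed in RNA of other cell types. The summed level of 16 cardiomyocyte markers ranged over 10766 to 15125 CPM in fetal, 6787 to 7482 in neonatal and 306 to 321 in adult libraries. Nearly all of the adult sum was Tnnt2, at 303, 310 and 316 CPM, and each other marker had at most 1.45 CPM there. In the adult libraries all 16 markers lay below every other library, 7 were at or below 3 counts, and the defining markers Csrp3 and Mb were at 0. The sum of 13 macrophage markers ran the other way, with 15.1 to 74.4 CPM in fetal, 171 to 187 in neonatal and 4504 to 6272 in adult libraries, and all 13 were highest in the adult. The sum of 11 fibroblast markers was 27599 to 54144 CPM in fetal, 72138 to 78390 in neonatal and 27042 to 35606 in adult libraries. Most of that sum was Col1a1 and Col3a1, with means of 37796 and 30805 CPM in neonatal and 14965 and 9468 in adult cultures. Of the 11 markers, 4 (Pdgfra, Tcf21, Vim and Dcn) lay above every other library in the adult and 2 (Ddr2 and Lum) below. Endothelial markers summed to 9.13 to 15.3 CPM in fetal, 24.3 to 26.3 in neonatal and 89.1 to 108 in adult libraries, where Tie1 had a mean of 70.4. Mural markers summed to 269 to 702 CPM in fetal, 1178 to 1238 in neonatal and 189 to 350 in adult libraries. The 3 epicardial or mesothelial markers in the table summed to 13.8 to 56.4 CPM, and the 5 erythroid markers in the table to at most 0.433. Proliferation markers summed to 860 to 1286 CPM in fetal, 718 to 723 in neonatal and 560 to 683 in adult libraries. Fetal replicate 3 stood apart, with the lowest fetal fibroblast and cardiomyocyte sums and an epithelial sum of 395 CPM against 23.7 and 26.5 in the other fetal libraries. The counts called over all tested members in each pair of ages are therefore also given without it. Counts by complex, by promoter string and in gene lists are not. The disagreement of same-age libraries was also measured over all their counts, as a chi-square per degree of freedom. It was 2.05, 2.52 and 2.76 between neonatal libraries and 3.94 between fetal replicates 1 and 2. Fetal replicate 3 had 90 and 97.3 against those libraries. Adult replicate 1 had 25.8 and 43 against the other adult libraries, which had 6.76 between them.

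Of the 81 members, 75 passed the low-count filter and were tested among 11337 genes, and 65 of them had at least 10 CPM in every library. The 6 others were Ndufa1 and Cox6c-ps1, with 0 counts in every library, Cox8c with 1 count over all 9, Atp5f1 with 27, Cox7a2 with 53 and Ndufa4l2 with 59. Reads that map to several places were not counted, so a level near 0 for a subunit that every respiring cell needs, such as Ndufa1, Atp5f1 or Cox7a2, is uncertain. Strand was not used in counting, and the exons of 4 members overlapped another gene, at most over 20.9% of their length in Cox7a2. Together the members took 0.889% to 1.23% of the counts of a library. Their summed level was 11711, 11484 and 10596 CPM in the fetal libraries, 9738, 9436 and 9604 in the neonatal and 10041, 9982 and 10811 in the adult. Every neonatal library thus lay below every other library, and the fetal and adult ranges overlapped. Per kilobase of exon, the highest mean levels in the fetal cultures belonged to Atp5b (1214 CPM per kilobase), Atp5a1 (529), Cox4i1 (509) and Cox6a1 (492). In the adult cultures they belonged to Cox4i1 (780, from a mean of 543 CPM) and Atp5b (777), which lay close together.

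**Figure D1:**
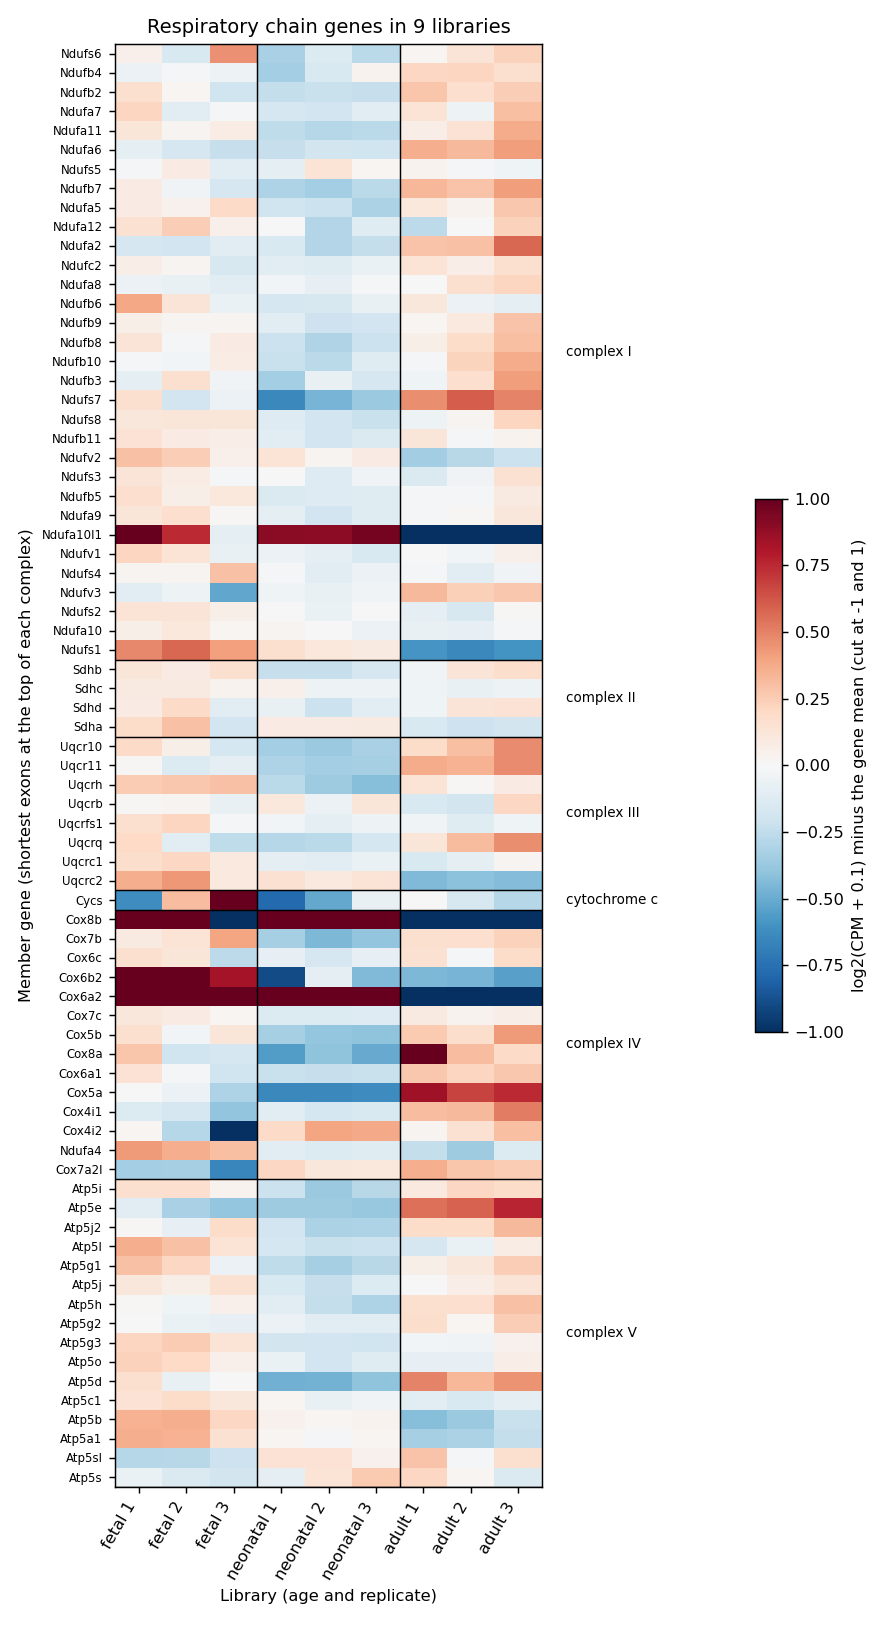
Level of each of the 75 tested members (rows, grouped by complex and sorted by exon length) in the 9 libraries (columns), as log2(CPM + 0.1) minus the gene's mean over the libraries. The neonatal columns are mostly blue, in 31 members below every fetal and adult library, and Cox6a2, Cox8b and Ndufa10l1 are at the lower end of the scale in all 3 adult libraries; with the trend on exon length removed, 6 members show that neonatal low.

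The members that changed from fetal to neonatal cultures nearly all fell, and most by small amounts. In neonatal against fetal libraries, 34 of the 75 tested members fell, 2 rose and 39 did not pass at an adjusted p under 0.05 in edgeR's quasi-likelihood test, where 18.0% of all genes tested fell and 18.3% rose. The 34 fell by 0.18 to 1.44 on the log2 scale, with a median of 0.34. The median log2 difference over all tested members was -0.22, with 64 of 75 below 0, against -0.01 over all genes. With the trend of each library on exon length removed, 34 members fell and 2 rose (19.5% and 17.8% of all genes), and 33 of the 34 were called in both fits. Without fetal replicate 3, 45 fell and 3 rose. Without neonatal replicate 2, 19 fell, and without neonatal replicate 3, 21 fell. When libraries were scaled by their totals alone, 59 fell and 1 rose, with a median of -0.39 where that scaling put all genes at -0.18. Of the 11337 genes tested, 3325 fell and 1360 rose under that scaling. The cardiomyocyte marker sum was also lower in the neonatal than in the fetal libraries, and its part in these falls was not tested. In bulk RNA, fewer cells of a type and less RNA per cell cannot be told apart.

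All complexes had members that fell. Complex V had 12 of 16 tested members fall and 1 rise, complex IV 7 of 14 fall and 1 rise, complex III 4 of 8, complex I 10 of 32 and complex II 1 of 4. With the length trend removed the falls numbered 12, 6, 4, 11 and 1 in the same order, and with scaling by library totals alone 14, 10, 7, 25 and 3. Of all genes tested, 18.0% fell as measured and 19.5% with the length trend removed. With scaling by library totals alone 3325 of the 11337 genes fell. The members that rose were Cox7a2l, whose product helps join complexes III and IV, and Atp5sl, a gene with an ATP synthase name whose product is known as an assembly factor of complex I. In 31 of 75 members every neonatal library lay below every fetal and every adult library, a pattern that 7.85% of all genes tested had. With the length trend removed, 6 of 75 had it, against 8.42% of all genes, so that share lay near the background.

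**Figure D2:**
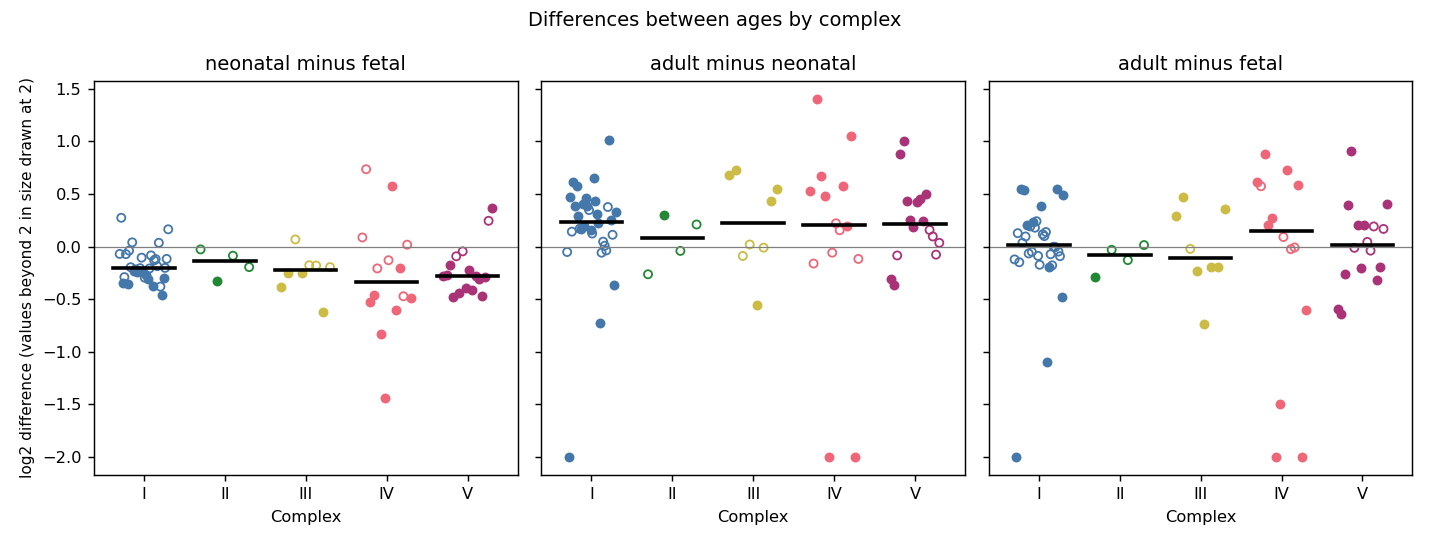
Fitted log2 difference of every tested member between ages, by complex. Filled points passed an adjusted p under 0.05, open points did not, and bars are medians. Complex medians lie between -0.33 and -0.14 in neonatal minus fetal, between 0.08 and 0.24 in adult minus neonatal and between -0.11 and 0.15 in adult minus fetal; with the exon length trend removed, the median over all members turns to -0.12 in adult minus neonatal and -0.32 in adult minus fetal.

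Adult cultures held more RNA than neonatal ones for 39 of the 75 tested members and less for 8, where 31.6% of all genes tested rose and 31.8% fell, but with the exon length trend removed 6 rose and 28 fell, against 31.3% and 27.9% of all genes. The median member difference was 0.22 and turned to -0.12 with that trend removed. Of the 39 risers, 6 stayed risers (Ndufs7, Uqcrq, Uqcr11, Cox5a, Atp5d and Atp5e) and 7 became fallers. All 8 that fell stayed below: Ndufs1, Ndufv2, Ndufa10l1, Uqcrc2, Cox6a2, Cox8b, Atp5a1 and Atp5b. Scaling by library totals alone gave 45 up and 8 down, where 3742 of the 11337 genes tested rose and 3186 fell. Leaving out fetal replicate 3 gave 46 members up and 9 down. The macrophage marker sum was higher and the cardiomyocyte sum lower in the adult libraries, and their part in these differences was not tested.

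Exon length matters here because the members are short. Their median summed exon length was 683 bases, against 2190 bases over all genes tested, and in these libraries short genes as a whole were higher in the adult cultures. Among the 260 genes with up to 600 bases of exon, the median adult minus neonatal difference was 0.52, and the 31 members among them had a median of 0.43. From 600 to 1000 bases the medians were 0.42 over 790 genes and 0.25 over 19 members. From 1000 to 2000 bases they were 0.17 over 3932 genes and 0.01 over 23 members. Only 2 members, Ndufs1 and Sdha, had 2000 to 3000 bases, where the median of 2903 genes was -0.04, and over 5000 bases, where no member lies, the median of 997 genes was -0.57. Within each range that holds more than 2 members, the members' median lay below that of all genes. Of the 50 members with at most 1000 bases, 35 rose and 3 fell, while of the 25 longer ones 4 rose and 5 fell, a split chosen after the values had been seen. Among all genes tested, 60% rose and 10.4% fell up to 600 bases, and 53.7% rose and 14.7% fell from 600 to 1000 bases. The shares were 39.1% and 21.2% from 1000 to 2000 bases, and 28.8% and 31.8% from 2000 to 3000 bases. Across the 75 members, Spearman's rho between the difference and exon length was -0.52, given as a description since the members share their libraries, and it was -0.31 across all 11337 genes. What made long and short genes differ between these libraries was not tested.

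**Figure D3:**
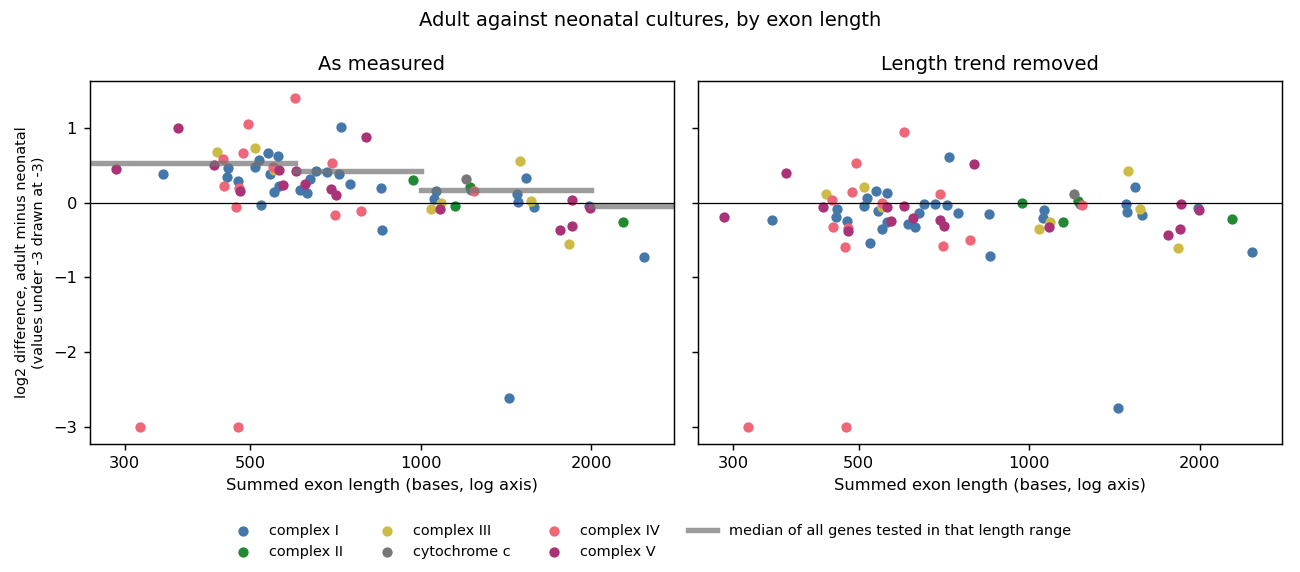
Adult minus neonatal log2 difference of each tested member against its summed exon length (log axis), as measured (left) and with the trend of each library on exon length removed (right). Grey bars are medians of all genes tested in a length range, from 0.52 up to 600 bases to -0.04 at 2000 to 3000 bases. On the left most short members lie above 0 (39 of 75 called higher), on the right 6 are called higher and 28 lower.

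Between adult and fetal cultures the members split. As measured, 21 rose and 19 fell, against 34.9% and 35.5% of all genes tested, but with the length trend removed 6 rose and 52 fell, against 34.5% and 34.2%. With scaling by library totals alone 12 rose and 26 fell, against 3419 and 4460 of the 11337 genes tested. The median difference was -0.01 as measured and -0.32 with the length trend removed, while scaling by totals gave -0.12 for the members and for all genes alike. All 19 that fell as measured also fell with the length trend removed. The 6 called higher in both fits were Ndufv3, Cox4i1, Cox5a, Cox7a2l, Atp5e and Atp5sl. By complex, the risers and fallers as measured numbered 7 and 4 in complex I, 0 and 1 in complex II, 3 and 4 in complex III, 6 and 4 in complex IV, and 5 and 6 in complex V. With the length trend removed they numbered 1 and 24, 0 and 3, 0 and 5, 3 and 8, and 2 and 12. The count of 21 dropped to 13 without fetal replicate 2, and was 19, with 23 fallers, without fetal replicate 3.

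In complex I, Ndufs1 encodes the largest subunit, which carries iron-sulfur clusters in the arm that receives electrons. The gene lies on chromosome 9 at 69919865 to 69953182 (rn6) and has the longest exon sum of all members, 2476 bases. Its level was 219.6, 234 and 209 CPM in fetal, 176, 169 and 167 in neonatal and 105, 100.4 and 104 in adult libraries. The ages did not overlap and stepped down with age. The adult level was 0.466 times the fetal one (log2 difference -1.10 ± 0.06 SE, adjusted p = 4.0e-07), and -1.06 with the length trend removed. Ndufs7, an iron-sulfur subunit close to the site where ubiquinone is reduced, had the opposite adult value. It stood at 46.4, 36.5 and 39.9 CPM in fetal, 26.6, 30.2 and 32.2 in neonatal and 57.5, 63.2 and 58.8 in adult libraries, with the neonatal lowest and no overlap between ages. The fall from fetal to neonatal (-0.46 ± 0.11, adjusted p = 0.0093) was followed by a 2.02-fold rise from neonatal to adult (1.01 ± 0.11, adjusted p = 3.5e-05; 0.61 with the length trend removed).

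Accessory subunits of complex I moved less. Ndufb8 and Ndufa11 fell from fetal to neonatal by 0.31 and 0.35 on the log2 scale. Adult minus neonatal they had differences of 0.43 and 0.47, which became -0.01 and -0.04, not called, with the length trend removed. Ndufv2, a subunit of the NADH-oxidising module, did not pass the test from fetal to neonatal (-0.12) and fell from neonatal to adult by 0.37 (adjusted p = 0.0023). Ndufv3, of the same module, rose from fetal to adult by 0.49 (adjusted p = 0.0031), and by 0.37 with the length trend removed. Ndufa10l1, annotated on chromosome 6 at 62796951 to 62798384 (rn6) as 1434 bases of exon with no intron, was scarce at 2.75, 2.16 and 1.17 CPM in fetal, 2.42, 2.42 and 2.52 in neonatal and 0.459, 0.506 and 0.225 in adult libraries. All 3 adult libraries lay below the others, and the adult minus neonatal difference was -2.61 ± 0.42 (adjusted p = 0.00048).

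Complex II, which is also an enzyme of the citric acid cycle, had 1 call in each pair of ages. Sdhb, its iron-sulfur subunit, had 128, 125 and 132 CPM in fetal, 101, 100.4 and 105 in neonatal and 115, 129 and 133 in adult libraries. The neonatal libraries were the lowest without overlap. Sdhb fell from fetal to neonatal (-0.33 ± 0.07, adjusted p = 0.0054) and rose to the adult by 0.30 (adjusted p = 0.0035), which became 0.00 with the length trend removed. Sdha, the flavoprotein that oxidises succinate, had 225 ± 37.8 CPM (SD, n = 3) in fetal, 221 ± 0.914 in neonatal and 184 ± 3.87 in adult cultures. Its adult minus fetal difference of -0.29 had an adjusted p of 0.035, but 0.088 without fetal replicate 1 and 0.13 without fetal replicate 2, and it missed the threshold in 8 of the 9 fits that left out 1 library. The membrane anchors Sdhc (163 ± 3.51, 154 ± 6.17 and 149 ± 1.80 CPM in the 3 ages) and Sdhd (103 ± 10.7, 90.2 ± 4.45 and 104 ± 7.25) passed the test in no pair of ages, though with the length trend removed Sdhc fell to the adult from both other ages (-0.26 from neonatal, -0.35 from fetal). Leaving out fetal replicate 3 brought 5 differences of this complex past the threshold: Sdha neonatal minus fetal (-0.16) and adult minus neonatal (-0.27), Sdhc adult minus fetal (-0.15), and Sdhd neonatal minus fetal (-0.27) and adult minus neonatal (0.21). Sdha adult minus neonatal also passed without fetal replicate 2 (-0.27), and Sdhd adult minus neonatal without adult replicate 1 (0.27).

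In complex III, Uqcrh, the hinge protein that helps cytochrome c dock, had the largest neonatal fall of the complex. Its level was 237, 239.7 and 243 CPM in fetal, 165, 155 and 148 in neonatal and 219, 200.4 and 211 in adult libraries. The fetal libraries were highest and the neonatal lowest, with gaps between all ages. Neonatal minus fetal was -0.62 ± 0.06 (adjusted p = 0.00016), and adult minus neonatal 0.43, which turned to -0.06, not called, with the length trend removed. Uqcrc2, a core protein of the complex with a longer exon sum of 1830 bases, had 281, 296 and 233 CPM in fetal, 242, 233 and 239.9 in neonatal and 161, 164 and 161 in adult libraries. The fetal and neonatal libraries overlapped and the adult ones lay below, at 0.601 times the fetal level (-0.74 ± 0.09, adjusted p = 4.5e-05; -0.81 with the length trend removed). Without fetal replicate 3, Uqcrc2 also fell from fetal to neonatal (-0.27, adjusted p = 0.0012). Uqcr11, a small accessory subunit, had 97.9 ± 5.38, 82.1 ± 0.894 and 136 ± 6.41 CPM in the 3 ages. It rose by 0.73 from neonatal to adult and by 0.47 from fetal to adult, and with the length trend removed by 0.21 (adjusted p = 0.0062) and by 0.03, not called. Its neonatal fall of 0.25 (adjusted p = 0.014) missed the threshold without neonatal replicate 2 (adjusted p = 0.060) or neonatal replicate 3 (adjusted p = 0.061).

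Cytochrome c itself was barely counted: Cycs stood at 0.81, 1.63 and 6.0 CPM in fetal, 0.716, 0.883 and 1.23 in neonatal and 1.30, 1.16 and 1.05 in adult libraries. The ages overlapped, fetal replicate 3 was highest, and no pair of ages passed the test. Without fetal replicate 1 the fetal level stood above the others past the threshold (neonatal minus fetal -2.01, adjusted p = 0.021, and adult minus fetal -1.70, adjusted p = 0.019). As for the members above, reads mapping to several places were not counted, so this level is uncertain.

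Complex IV held the largest differences, in its muscle forms. Cox6a2, the striated-muscle form of subunit 6a, lies on chromosome 1 at 199624037 to 199624783 (rn6). It had 130.3, 128 and 98.4 CPM in the fetal libraries, 66.6, 66.1 and 67.8 in the neonatal and 0.306, 0.361 and 0.674 in the adult. The 3 ages did not overlap, and the adult libraries were nearly free of it. The log2 difference was -0.83 ± 0.12 from fetal to neonatal (adjusted p = 0.0010) and -8.03 ± 0.21 from fetal to adult (adjusted p = 4.1e-09; -8.48 with the length trend removed). The widespread form, Cox6a1, had 302, 269 and 238 CPM in fetal, 234, 233 and 234 in neonatal and 330.5, 317 and 329.8 in adult libraries. All adult libraries lay above the rest. It rose from neonatal to adult by 0.48 and from fetal to adult by 0.27, which turned to -0.01 and -0.16, not called, with the length trend removed. Its neonatal minus fetal difference of -0.21 did not pass (adjusted p = 0.080), but -0.29 did without fetal replicate 3 (adjusted p = 0.0022). Per kilobase of exon, Cox6a2 made up 33.7% ± 1.64 (SD, n = 3) of subunit 6a transcripts in fetal, 24.9% ± 0.193 in neonatal and 0.158% ± 0.0683 in adult cultures. The sum of cardiomyocyte markers was likewise lower at each later age, and its part in the Cox6a2 difference was not tested.

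Cox8b, the muscle form of subunit 8 in rodents (chromosome 1, 213648787 to 213650247, rn6), had 4.0, 4.72 and 0.106 CPM in fetal and 3.25, 2.28 and 3.50 in neonatal libraries, and 0 counts in all 3 adult ones. Fetal replicate 3 was thus far below the other fetal libraries. Against a floor of 3 counts per library, the adult level was at least 13.1-fold lower than the fetal mean and at least 13.4-fold lower than the neonatal (adjusted p = 0.011 and 0.012). The widespread form, Cox8a, had 45.7, 32.7 and 33.5 CPM in fetal, 25.5, 28.5 and 26.5 in neonatal and 77.7, 46.5 and 43.1 in adult libraries. The adult libraries lay above the neonatal, with adult replicate 1 far above the others. The adult minus neonatal difference was 1.05 (adjusted p = 0.0029), or 0.53 with an adjusted p of 0.068 with the length trend removed. The adult minus fetal difference of 0.58 had an adjusted p of 0.041, but without adult replicate 1 it was 0.27 with an adjusted p of 0.14, and without fetal replicate 2 or 3 or any neonatal replicate the adjusted p was 0.12, 0.15 and 0.053 to 0.055. The neonatal fall of Cox8a (-0.47, adjusted p = 0.13) passed without adult replicate 1 (adjusted p = 0.025).

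Cox5a, which encodes a matrix-side subunit of complex IV, had the largest rise of any member, also with the length trend removed. The gene lies on chromosome 8 at 62298358 to 62309765 (rn6). Its level was 54.0, 52.0 and 43.6 CPM in fetal, 34.5, 34.6 and 34.9 in neonatal and 97.5, 86.5 and 90.8 in adult libraries, with no overlap between ages. Cox5a fell from fetal to neonatal (-0.53 ± 0.09, adjusted p = 0.0022), then stood 2.64-fold higher in the adult than in the neonatal cultures (1.40 ± 0.09, adjusted p = 1.6e-06; 0.94 with the length trend removed). Cox4i1, the widespread form of subunit 4, which regulates the enzyme by ATP, had 378, 369 and 316 CPM in fetal, 384, 369 and 375 in neonatal and 515, 520.1 and 593 in adult libraries. Fetal and neonatal libraries overlapped and the adult ones lay above, by 0.62 ± 0.09 over the fetal (adjusted p = 0.00019), or 0.23 (adjusted p = 0.038) with the length trend removed. Its alternative form Cox4i2, known from lung and low-oxygen settings, made up 1.10%, 1.75% and 1.09% of subunit 4 transcripts per kilobase in fetal, neonatal and adult cultures. Cox4i2 passed the test in no pair of ages, though neonatal against fetal it had a difference of 0.73 with an adjusted p of 0.058 in edgeR and 0.034 in DESeq2's Wald test. That difference passed without fetal replicate 1 (0.99) or fetal replicate 3 (0.46), and the adult minus fetal one without fetal replicate 1 (0.82).

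Cox7a2l had 189, 191 and 153 CPM in fetal, 276, 259.6 and 258 in neonatal and 308, 290.2 and 285 in adult libraries. Every neonatal and adult library lay above every fetal one, in contrast to most members. It rose from fetal to neonatal by 0.58 ± 0.09 (adjusted p = 0.0016) and from fetal to adult by 0.73 (adjusted p = 6.9e-05), and by 0.57 and 0.54 with the length trend removed. From neonatal to adult its difference of 0.15 did not pass (adjusted p = 0.16), but did without fetal replicate 3 (adjusted p = 0.016). Ndufa4, named for complex I but now counted as a complex IV subunit, went the other way. It had 211, 203 and 194 CPM in fetal, 146, 143 and 145 in neonatal and 134, 123 and 143 in adult libraries, the fetal ones all above the rest. Ndufa4 fell from fetal to neonatal by 0.49 (adjusted p = 0.00081) and from fetal to adult by 0.61 (adjusted p = 3.5e-05; 0.97 with the length trend removed). The adult minus neonatal difference of Ndufa4, -0.12, did not pass, but with the length trend removed it was -0.50 (adjusted p = 0.00011). Its relative Ndufa4l2, a hypoxia-induced gene, stayed at 1.38 CPM or less and was not tested. Cox7b had 102 ± 11.8, 66.9 ± 2.65 and 99.9 ± 2.44 CPM in the 3 ages. Cox7b fell between the first ages by 0.60 and rose to the adult by 0.58, the rise becoming 0.03, not called, with the length trend removed. Cox6b2, a form best known from testis, had 4.43 ± 0.346, 1.62 ± 0.468 and 1.56 ± 0.0587 CPM. Cox6b2 fell from fetal to neonatal by 1.44 (adjusted p = 0.0022) and from fetal to adult by 1.50 (adjusted p = 0.00049), and by 1.36 and 1.95 with the length trend removed. The widespread form Cox6b1 and the muscle form Cox7a1 had no entry under those symbols among the genes counted, so they could not be analysed here.

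In complex V, the alpha and beta subunits fell with age. Of the central stalk, delta and epsilon rose from neonatal to adult, while gamma, Atp5c1, fell from fetal to neonatal by 0.18 and from fetal to adult by 0.26 (0.51 with the length trend removed). The adult minus neonatal difference of Atp5c1, -0.09, did not pass, but with the length trend removed it was -0.33 (adjusted p = 0.00072). Atp5b encodes the catalytic beta subunit and lies on chromosome 7 at 2504708 to 2511748 (rn6). It was the most abundant member, with 2197, 2217 and 1994 CPM in fetal, 1773, 1749.8 and 1772 in neonatal and 1287, 1336 and 1479 in adult libraries. The 3 ages did not overlap. Adult was 0.64 times fetal (-0.64 ± 0.08, adjusted p = 9.0e-05; -0.73 with the length trend removed). Neonatal minus fetal was -0.28 with an adjusted p of 0.029, but 0.077 and 0.080 without fetal replicates 1 and 2, and 0.099 to 0.11 without any of the neonatal replicates. Atp5a1, the alpha subunit that alternates with beta in the ring, had 977 ± 77.2, 803 ± 9.54 and 649 ± 22.9 CPM and fell from fetal to adult by 0.59.

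Atp5d, the delta subunit of the central stalk, had 155, 131 and 138 CPM in fetal, 99.4, 99.6 and 105 in neonatal and 195, 174 and 189 in adult libraries. Neonatal libraries were lowest and adult ones highest, with no overlap. It fell from fetal to neonatal by 0.48 (adjusted p = 0.0017) and rose from neonatal to adult by 0.88 (adjusted p = 1.1e-05; 0.51 with the length trend removed). Atp5e, the epsilon subunit beside it, had 101, 86.8 and 83.0 CPM in fetal, 85.0, 85.2 and 83.9 in neonatal and 159.8, 164 and 185 in adult libraries. Fetal and neonatal libraries overlapped and the adult ones stood 2.0-fold above the neonatal (1.00 ± 0.09, adjusted p = 1.1e-05; 0.40 with the length trend removed). Atp5sl rose from 33.4 ± 0.937 CPM in fetal to 43.0 ± 1.74 in neonatal cultures (0.37, adjusted p = 0.0098, but 0.20 with an adjusted p of 0.13 when libraries were scaled by their totals alone) and had 44.1 ± 4.59 in adult ones.

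The membrane ring of ATP synthase is built of subunit c, whose mature protein is the same from 3 genes. Per kilobase, Atp5g3 gave 44.4% ± 0.951 (SD, n = 3) of subunit c transcripts in fetal, 40.4% ± 0.415 in neonatal and 38.6% ± 1.06 in adult cultures. Atp5g2 gave 38.7% ± 1.20, 44.8% ± 0.323 and 44.6% ± 1.51, and Atp5g1 16.9% ± 1.37, 14.9% ± 0.266 and 16.8% ± 0.746. Atp5g3 led in the fetal and Atp5g2 in the neonatal and adult cultures. Atp5g1 and Atp5g3 fell from fetal to neonatal by 0.45 and 0.39 (adjusted p = 0.0070 and 0.0011), while Atp5g2 had a difference of -0.05 that did not pass. From neonatal to adult the 3 had differences of 0.43, 0.18 and 0.25 in the order Atp5g1, Atp5g3, Atp5g2, all called, which turned to -0.05, -0.24 and -0.21 with the length trend removed. In that fit Atp5g1 was not called, while Atp5g3 and Atp5g2 were called lower in the adult (adjusted p = 0.0081 and 0.013). Without removal of the trend, the rise of Atp5g3 missed the threshold without adult replicate 3 or any neonatal replicate (adjusted p = 0.062 to 0.082), and that of Atp5g2 without neonatal replicate 3 (adjusted p = 0.052).

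**Figure D4:**
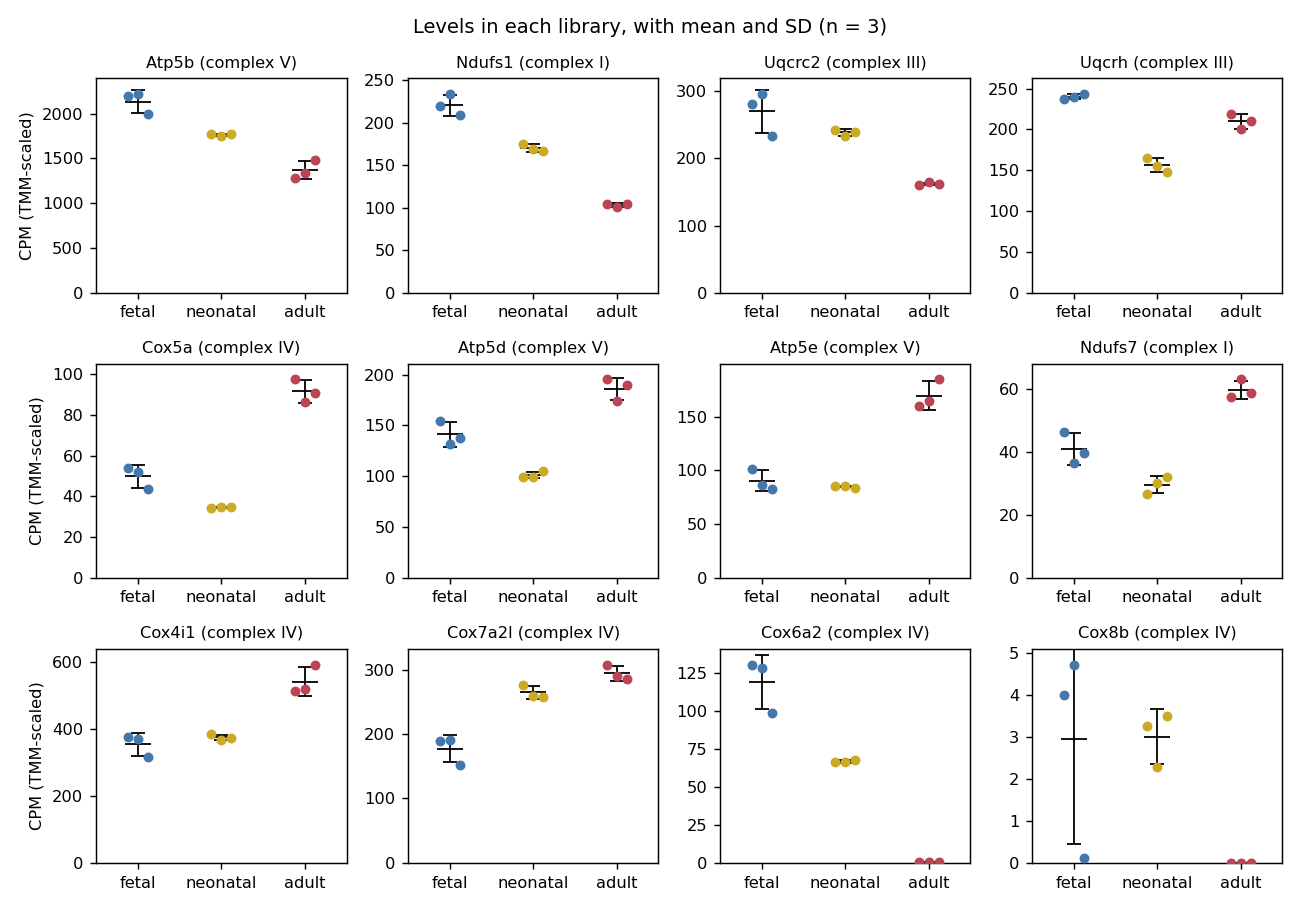
TMM-scaled CPM of 12 members in each library (points), with the mean and SD of the 3 libraries of an age (black). Atp5b, Ndufs1 and Uqcrc2 are lowest in the adult, Uqcrh, Cox5a, Atp5d and Ndufs7 lowest in the neonatal libraries, and Cox6a2 lies at 0.306 to 0.674 CPM in the adult libraries against 66.1 to 130.3 elsewhere; the adult rise of Uqcrh over the neonatal level turns to -0.06 on the log2 scale with the exon length trend removed.

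Members with and without the promoter strings shown above had calls in all comparisons. Of the 28 tested members with at least 1 of the 3 strings, 17 fell and 0 rose from fetal to neonatal (median -0.29), and of the 36 with none, 15 fell and 1 rose (median -0.21). From neonatal to adult, before removal of the length trend, 18 rose and 3 fell of the first set and 17 rose and 4 fell of the second. From fetal to adult, 9 rose and 7 fell of the first set and 7 rose and 10 fell of the second. None of these counts was made with the length trend removed. Among all genes tested, 18.0% fell and 18.3% rose from fetal to neonatal, and 31.8% and 31.6% from neonatal to adult. From fetal to adult the shares were 35.5% and 34.9%.

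Genes that act on the respiratory chain were read from 4 lists. Counts as measured stand against these shares of all genes tested: 18.0% fell and 18.3% rose from fetal to neonatal, 31.8% and 31.6% from neonatal to adult, and 35.5% and 34.9% from fetal to adult. With the length trend removed, the shares in the same order were 19.5% and 17.8%, 27.9% and 31.3%, and 34.2% and 34.5%. With scaling by library totals alone, 3325 of the 11337 genes fell and 1360 rose from fetal to neonatal. Under that scaling 3186 fell and 3742 rose from neonatal to adult, and 4460 fell and 3419 rose from fetal to adult. Of 36 tested assembly factors, which build the complexes without being part of them, 7 fell and 0 rose from fetal to neonatal, or 9 and 0 with scaling by library totals alone. From neonatal to adult 12 rose and 3 fell, or 10 and 6 with the length trend removed. From fetal to adult 11 rose and 11 fell, or 8 and 12 with the length trend removed. The assembly factors with the smallest adjusted p were those of complex IV. Coa3 had 20.7 ± 1.62, 22.6 ± 1.36 and 49.7 ± 3.31 CPM in fetal, neonatal and adult cultures (adult minus fetal 1.27, adjusted p = 2.0e-06; 0.88 with the length trend removed). Cox16 had 13.8 ± 0.151, 14.4 ± 0.746 and 25.9 ± 1.69 CPM (0.91, adjusted p = 1.3e-05; 0.55 with the length trend removed).

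Of 18 tested genes for transcription of the respiratory chain and upkeep of mitochondrial DNA, 4 fell and 0 rose from fetal to neonatal (7 and 0 with scaling by library totals alone), 6 fell and 3 rose from neonatal to adult (4 and 3 with the length trend removed), and 7 fell and 2 rose from fetal to adult (8 and 2 with the length trend removed). Ppargc1a, the coactivator that drives formation of mitochondria in muscle and other tissues, had 5.24, 5.82 and 5.84 CPM in fetal and 2.86, 3.16 and 2.40 in neonatal libraries, and 0 counts in all 3 adult ones. It fell from fetal to neonatal by 1.00 (adjusted p = 0.010), and the adult level was at least 25.2-fold below the fetal mean. Esrrg, a nuclear receptor that works with it and is prominent in heart muscle, had 6.59, 8.11 and 6.96 CPM in fetal, 3.96, 4.97 and 4.92 in neonatal and 0.0765, 0 and 0.0749 in adult libraries. Both were ordered over the ages as the cardiomyocyte marker sum was, and its part in their differences was not tested.

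The citric acid cycle, which supplies the NADH and succinate, had fallers and no risers among the genes that passed the test. Of its 12 tested genes 6 fell from fetal to neonatal (18.0% of all genes), 7 from neonatal to adult (31.8%) and 10 from fetal to adult (35.5%), and none rose. With the length trend removed 6, 9 and 11 fell and none rose, and with scaling by library totals alone 9, 6 and 11 fell and none rose. The median differences were -0.20, -0.36 and -0.43. Citrate synthase, Cs, which makes citrate from acetyl-CoA, had 275, 282 and 262 CPM in fetal, 246, 235 and 236 in neonatal and 167, 164 and 169.7 in adult libraries, stepping down with no overlap (adult minus fetal -0.71 ± 0.06, adjusted p = 3.9e-06).

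Of 66 tested genes of the mitochondrial ribosome, which translates the subunits encoded in mitochondria, 18 fell and 0 rose from fetal to neonatal, where 18.0% of all genes fell and 18.3% rose. With scaling by library totals alone 41 of them fell, against 3325 of the 11337 genes tested. From neonatal to adult 38 rose and 2 fell, or 22 and 9 with the length trend removed. From fetal to adult 22 rose and 8 fell, which turned to 8 and 23 with the length trend removed and to 13 and 12 with scaling by library totals alone. Mrpl52 had 45.2 ± 3.80, 49.8 ± 3.01 and 97.5 ± 5.27 CPM in the 3 ages (adult minus fetal 1.11, adjusted p = 2.4e-06; 0.83 with the length trend removed). Mrpl51 had 46.3 ± 4.58, 40.4 ± 1.22 and 29.2 ± 1.22 CPM (-0.67, adjusted p = 8.7e-05; -0.64 with the length trend removed).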

How the data were processed

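RNA from 9 cultures, 3 per age, was measured by RNA-seq. Raw counts per gene were deposited by the authors and, per the file headers, were made with featureCounts 1.6.3 on rn6 genes with default options, so strand was not used and reads mapped to several places were left out. The submitters' processing notes also name FastQC, Trimmomatic 0.39, STAR 2.5.2b and DESeq2. The deposited normalized signal equals the counts divided by 1 size factor per library and served only for those factors. The gene length, another value deposited by the authors, is the summed exon length in bases.

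Counts were tested here with edgeR 4.0.16 in R 4.3.3 (filterByExpr by age, TMM, robust glmQLFit and glmQLFTest, all 9 libraries, age as the only term, Benjamini-Hochberg over the 11337 genes tested). Standard errors were taken as the log2 difference over the root of F. The length trend was removed with offsets from a lowess of each library on exon length (span 0.3). Alternatives were other scalings, no filter, DESeq2 1.42.0, a replicate block, fits of only the ages compared and fits without each library. The fits were tested on simulated data with known changes. A bound for a gene at 0 uses 3 counts per library and covers counting error only.

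Named members are those with alternative forms of a subunit, Cycs and the Sdh genes, the called member with the largest difference in each complex, pair of ages and direction with at least 10 CPM, and those called with a log2 difference of at least 1. Of each pathway list the 2 genes with the smallest adjusted p in adult against fetal are named, except 1 gene that is not reported here. Other members given in the text were chosen after their values were seen. Members, gene lists and marker lists were chosen with earlier results of these data known. Promoter windows are RefSeq's, on GRCr8, matched by symbol (64 members) or synonym (17).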

Additional observations from a re-analysis of the deposited data

How the results depend on the processing

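Most of 12 counts and medians over members and all genes stayed near their values in several alternatives. These were DESeq2 size factors, no low-count filter, DESeq2's Wald test and the replicate block. The adult minus fetal median of -0.01 came to 0.0006 with the block. Without the filter, 15 members rose in adult against fetal and 34 in adult against neonatal, where the main fit had 21 and 39. With the Wald test, 40 members fell in neonatal against fetal, where the main fit had 34. Same-numbered libraries of different ages did not deviate together (correlations -0.0649 to 0.0521), so the numbers do not pair them. With the block, 31 members fell and 2 rose in neonatal against fetal, 37 rose and 8 fell in adult against neonatal, and 17 rose and 17 fell in adult against fetal, and of 87 results for named members 1 lost its call, Atp5b in neonatal against fetal.

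With scaling by library totals alone, 1 member rose and 59 fell in neonatal against fetal (median -0.395), where 1360 of the 11337 genes tested rose and 3325 fell. In adult against fetal that scaling gave 12 members that rose (median -0.115), where 3419 of all genes tested rose. Fitting only the ages compared also gave 12 risers in adult against fetal. With the length trend removed, at a lowess span of 0.3 and, chosen after seeing the data, 0.7, adult against neonatal gave 6 and 6 risers, 28 and 29 fallers and medians of -0.1198 and -0.1174. Adult against fetal gave 6 and 6 risers, 52 and 52 fallers and medians of -0.3162 and -0.3150. Among the members named by the rule, the called differences that turned negative in adult against neonatal were those of Cox6a1 (-0.0126 and -0.0167), Atp5g1 (-0.0542 and -0.0572), Atp5g2 (-0.2085 and -0.2046), Atp5g3 (-0.2355 and -0.2271) and Uqcrh (-0.0621 and -0.0659). In adult against fetal, among the same named members, they were those of Cox6a1 (-0.1581 and -0.1753) and Atp5g2 (-0.2085 and -0.2103). Members outside that rule turned negative as well, among them Ndufb8 and Ndufa11. The cause of these changes was not tested.

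Leaving out 1 library at a time gave 2476 to 4679 genes called in neonatal against fetal (main value 4114; 2607, 2476 and 2575 without neonatal replicates 1, 2 and 3), 19 to 45 members that fell there and 13 to 21 that rose in adult against fetal, and reversed no named result. Over all alternatives, 1359 of 1478 values for named members kept direction and call, 58 lost the call, 47 gained it and 14 reversed. Depth limits the 10 tested members with means under 15 CPM, among them Cox8b and Cycs.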
